A study of Mus musculus with 24 samples.

Results

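MHC class I molecules present peptides from inside the cell on its surface. Each consists of a heavy chain, encoded in mouse by H2 genes, and the invariant light chain beta-2-microglobulin. Peptides made by the proteasome are pumped into the endoplasmic reticulum by the TAP transporter and loaded there with the help of chaperones, and interferons raise the expression of most genes of the pathway. In brain, class I is known to be low in neural cells at rest and higher in endothelium and microglia.

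The set described here holds 10 genes out of 48321 symbols in the deposited tables: the classical heavy chains H2-K1 and H2-D1, the light chain B2m, the non-classical heavy chains H2-Q1, H2-Q2, H2-Q4, H2-Q6, H2-Q10 and H2-T10, and Tap1, a TAP subunit. They were picked by symbol with the genotype difference in these data already known. Their genotype values are therefore a description without a test. All 10 had enough reads to enter the fit across genes.

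The cells carried GFP and were sorted out of adult hippocampus (strain C57BL/6), in 3 pools per genotype. Mice of the Notch2 CKO pools were Notch2 flox/flox, and those of the WT pools were Notch2 wt/wt. Animals of both genotypes carried Hes5::CreERT2, an inducible Cre driven from a Notch target gene of neural stem cells, and the Rosa26R-CAG::GFP reporter. All received tamoxifen for 5 days, and the sort followed 1 day later. Each pool combined animals of 1 genotype and was measured in 2 libraries, each run on 2 lanes. Levels are given in CPM after TMM scaling of the library sizes, so that 1 read was worth 0.0175 to 0.0265 CPM.

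Pools had 40366579 to 53984963 reads in genes. Markers of astroglia and stem cells were abundant, with all 10 listed markers detected and a summed level of 19053 to 29248 CPM in CKO pools and 22023 to 22417 CPM in WT pools. Oligodendrocyte markers were present too, at 2503 to 4845 CPM in CKO pools and 1808 to 5440 CPM in WT pools, so the values describe a mixture of sorted cells. In such bulk samples, fewer cells of a type and less RNA per cell cannot be told apart. Notch2, the targeted gene, stood at 65.3, 116 and 121 CPM in CKO pools, against 99.3, 146 and 303 CPM in WT pools, with overlap between genotypes. Counts per gene include exons that recombination leaves in place.

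The promoters of the classical genes share a short stretch in which a site for NF-kappaB precedes an interferon-responsive element. It is printed for the 5 heavy chain members whose promoter window holds that element, and the B2m stretch with its own interferon-responsive core is set beside them. The letters are from RefSeq (GRCm38.p6), 5′ to 3′ on the strand of the gene. Capitals mark matches to the NF-kappaB consensus, the interferon-responsive element of class I genes (the last 10 letters of each heavy chain line) and the core of the interferon-stimulated response element (the first 10 letters of the B2m line, where any base may stand at the fifth and sixth place).
H2-K1 (chr17:34000429-34000458, minus strand): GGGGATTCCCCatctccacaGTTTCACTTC
H2-D1 (chr17:35262923-35262952, plus strand): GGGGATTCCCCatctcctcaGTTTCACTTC
H2-Q4 (chr17:35379443-35379472, plus strand): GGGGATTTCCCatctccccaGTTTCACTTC
H2-Q6 (chr17:35424677-35424706, plus strand): GGGGATTCCCCatctccccaGTTTCACTTC
H2-Q10 (chr17:35469913-35469942, plus strand): gaggactccccatctccccaGTTTCACTTC
B2m (chr2:122147548-122147577, plus strand): GAAACTGAAAatgGGAAAGTCCCtttgtaa

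Windows of 250 bases before to 50 after the start were found for 8 of the 10 members. The interferon-responsive element, sought like the other motifs on both strands, was in 5 of these 8 windows and in 0.140% of all 32851 windows. It was sought as 10 fixed letters known from class I genes, so this comparison is a description and no test. The NF-kappaB consensus was in 5 of 8 member windows, against 8.46% of all. The core of the response element was in 1 member window, that of B2m, against 3.44% of all. The stretch of H2-Q10 kept the interferon-responsive element and had no match to the NF-kappaB consensus within these 30 bases. H2-K1 and H2-Q6 each differed from H2-D1 at 1 of the 30 bases, H2-Q4 at 2 and H2-Q10 at 3. These are matches of letters and say nothing of binding.

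Among the classical heavy chains, H2-D1 separated the genotypes and H2-K1 did not. H2-D1 (chromosome 17, 35262730 to 35267499, plus strand, GRCm38) stood at 139, 140 and 125 CPM in CKO pools, against 285, 247 and 218 CPM in WT pools. Every CKO pool lay below every WT pool, with means of 135 ± 8.66 and 250 ± 33.9 CPM (SD, n = 3 pools each). The log2 fold change of CKO over WT was -0.89 (SE 0.20). It was -1.10 in library 1 alone and -0.69 in library 2 alone, and single libraries overlapped, at 105 to 173 CPM in CKO and 134 to 363 CPM in WT.

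H2-K1 (chromosome 17, 33996017 to 34000347, minus strand) had 126, 97.9 and 151 CPM in CKO pools, against 138, 134 and 71.3 CPM in WT pools. The pools overlapped, and WT pool 3 was the lowest of the 6. Its log2 fold change was 0.13 (SE 0.32), with -0.21 in library 1 and 0.53 in library 2. The ratio of H2-K1 to H2-D1 levels, each in CPM, was 0.939 ± 0.259 in CKO pools and 0.451 ± 0.111 in WT pools (SD, n = 3 each). The lowest CKO pool had a ratio of 0.698 and the highest WT pool 0.542.

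The light chain B2m (chromosome 2, 122147686 to 122153083, plus strand) also overlapped between genotypes. It stood at 206, 172 and 280 CPM in CKO pools, against 339, 257 and 129 CPM in WT pools, a log2 fold change of -0.14 (SE 0.38). WT pools spanned both the highest and the lowest value. The log2 fold change was 0.20 without WT pool 1, 0.0095 without CKO pool 2 and -0.45 without WT pool 3.

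All 5 H2-Q members, which encode non-classical heavy chains of the Qa region, had CKO pools that all lay under the lowest WT pool. Their summed level was 11.8 ± 1.02 CPM in CKO pools and 38.9 ± 6.00 CPM in WT pools (SD, n = 3 each). H2-Q10, known from liver as the source of a secreted class I protein, had 1.95, 1.64 and 2.22 CPM in CKO pools, against 11.02, 9.79 and 8.48 CPM in WT pools. The log2 fold change was -2.33 (SE 0.52). H2-Q2 had 0.702, 0.381 and 1.06 CPM in CKO pools, against 5.93, 5.66 and 3.68 CPM in WT pools, the widest gap of the 10 members at -2.83 (SE 0.72). Its lowest level, in CKO pool 2, rested on 17 reads.

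H2-Q4 had 2.33, 2.56 and 2.32 CPM in CKO pools, against 9.71, 7.88 and 6.33 CPM in WT pools (log2 fold change -1.73, SE 0.53). H2-Q1 had 3.81, 3.45 and 3.05 CPM in CKO pools, against 9.24, 8.45 and 7.42 CPM in WT pools (-1.28, SE 0.49). For H2-Q6, CKO pool 2 stood above the other CKO pools: levels were 2.68, 4.96 and 2.40 CPM in CKO pools, against 8.39, 8.28 and 6.54 CPM in WT pools (-1.21, SE 0.56, and -1.60 without CKO pool 2). In the other 4 H2-Q members every one of the 6 CKO libraries was also below every one of the 6 WT libraries. H2-Q10, for one, ranged from 1.19 to 2.47 CPM over CKO libraries and from 6.84 to 12.1 CPM over WT libraries.

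**Figure D1:**
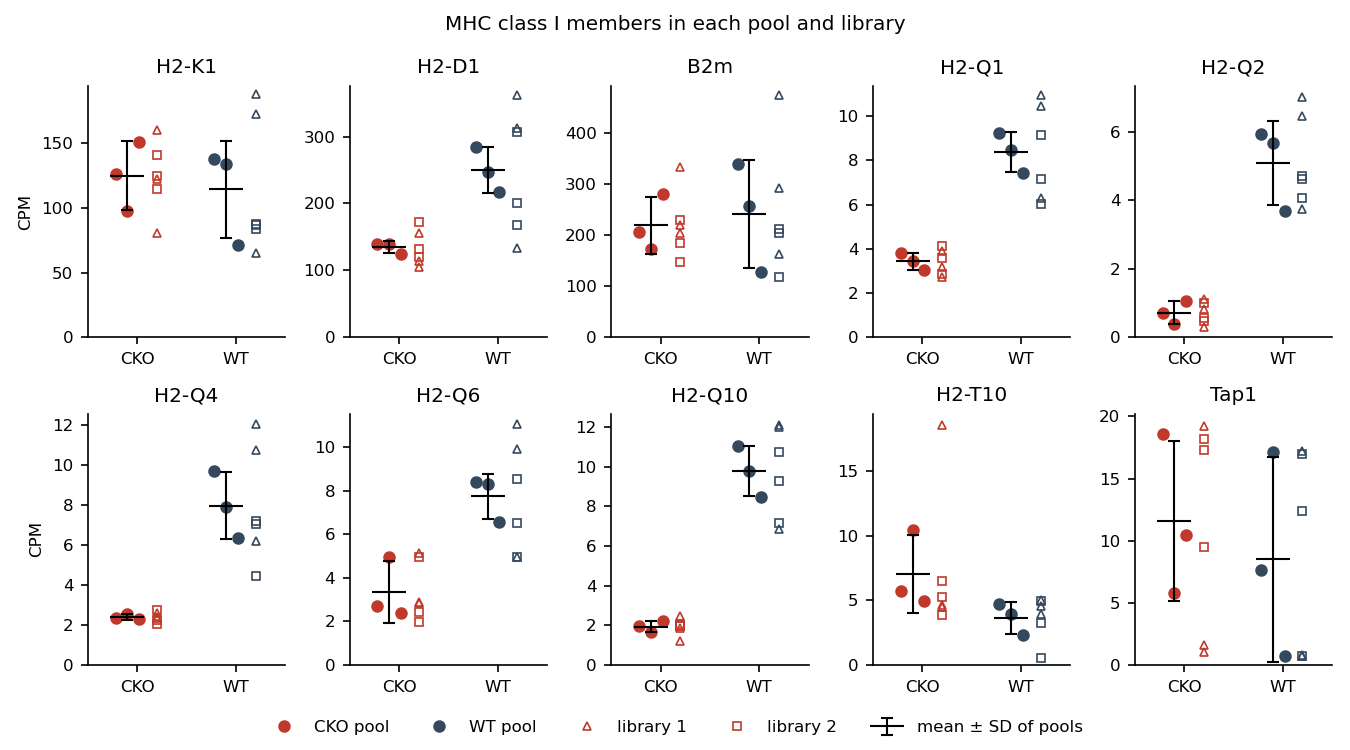
Levels of the 10 members in CPM (y axes from 0, one panel per gene) in the Notch2 CKO and WT pools (filled circles, with mean ± SD of 3 pools) and in the 2 libraries of each pool (open triangles for library 1, open squares for library 2). H2-D1 and the 5 H2-Q genes have every CKO pool below every WT pool, and H2-T10 has the opposite order.

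H2-T10 went the other way. This gene (chromosome 17, 36115876 to 36121465, minus strand), annotated in GENCODE M21 as a polymorphic pseudogene, is named with H2-T22 as a ligand of gamma-delta T cell receptors. It had 5.72, 10.5 and 4.94 CPM in CKO pools, against 4.73, 3.96 and 2.30 CPM in WT pools. The pools did not overlap, but CKO pool 3 exceeded WT pool 1 only narrowly, and the log2 fold change was 0.94 (SE 0.60). In CKO pool 2 the libraries held 18.6 and 3.89 CPM, and without that pool the value was 0.54.

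Tap1 (chromosome 17, 34187553 to 34197225, plus strand) was detected unevenly. It had 18.6, 5.81 and 10.5 CPM in CKO pools, against 7.62, 17.2 and 0.715 CPM in WT pools, a log2 fold change of 0.45 (SE 1.01) with broad overlap. Single libraries fell into a low and a high range. Those of CKO pool 3 had 1.06 and 18.2 CPM, and those of WT pool 1 had 0.687 and 12.4 CPM. Both libraries of WT pool 3 were low, at 0.789 and 0.744 CPM. The log2 fold change was 1.57 without WT pool 2, -0.09 without WT pool 3 and -0.06 without CKO pool 1.

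Over the set, every CKO pool was below every WT pool in 6 of 10 members and above in 1. Of all 21477 genes tested, 8.17% were in the first class and 7.67% in the second. Every CKO library was below every WT library in 4 members and above in 0, where the shares of all genes were 0.321% and 0.414%. The median log2 fold change was -1.05 over the members and -0.06 over all genes tested. Since the members were picked with this difference known, these counts carry no weight as evidence. No gene passed an adjusted p under 0.05 between genotypes (0% of 21477 in edgeR's quasi-likelihood test with Benjamini-Hochberg adjustment, 1269 at an unadjusted p under 0.05, and 129 called by DESeq2).

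**Figure D2:**
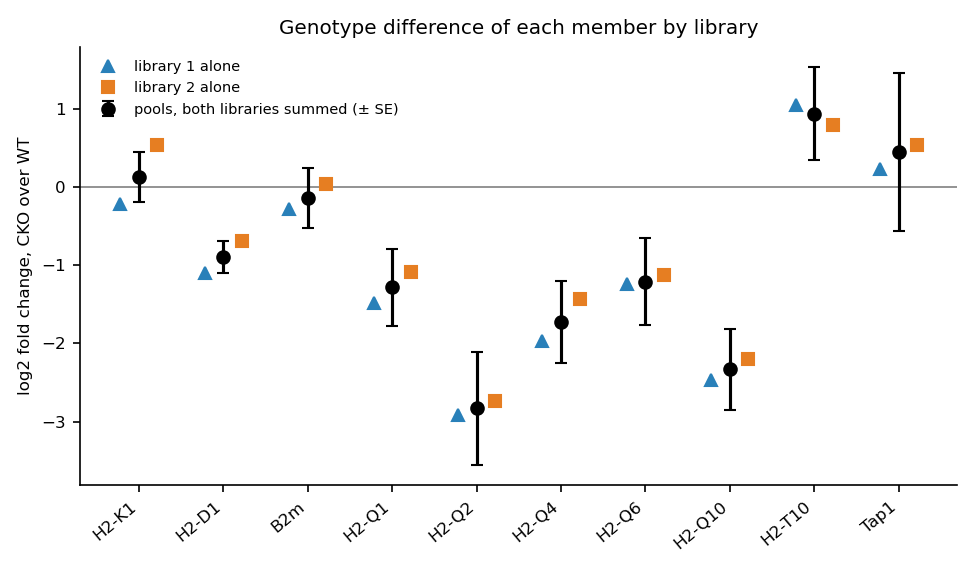
Log2 fold change of CKO over WT for each member, from the pools (black circles with SE) and from library 1 or library 2 of each pool alone (triangles and squares). H2-D1 and the H2-Q genes lie below 0 in both libraries, while H2-K1 and B2m take opposite signs in the 2 libraries.

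Compared per length of annotated exons, the order of levels had B2m first in both genotypes, at 255 ± 64.4 CPM per kb in CKO pools and 281 ± 123 in WT pools (SD, n = 3 each). H2-D1 followed with 52.2 ± 3.36 CPM per kb in CKO pools and 96.9 ± 13.1 in WT pools, then H2-K1 with 42.6 ± 9.12 CPM per kb in CKO pools and 38.9 ± 12.7 in WT pools. In CKO pools H2-D1 and H2-K1 lay within their spread of each other, and in WT pools they did not. The other 7 members were much lower, at 0.328 to 2.12 CPM per kb in CKO pools and 1.07 to 3.71 CPM per kb in WT pools. Among them Tap1 and H2-T10 led in CKO pools at 2.12 ± 1.18 and 2.06 ± 0.877 CPM per kb. H2-Q6 and H2-Q4 led in WT pools at 3.71 ± 0.497 and 3.07 ± 0.652 CPM per kb, which did not differ beyond their spread.

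Heavy chain genes are close copies of each other, and the tables held 0 reads in the line for reads with several alignments. That line alone does not tell whether reads from shared sequence were placed on any copy or left out. The counts of single H2 genes are uncertain either way. Of the 50-base words in the GENCODE M21 transcripts of a member, 12.8% were shared with another gene for H2-D1 and 9.63% for H2-K1. The shares were 14.96% for H2-Q1, 16.1% for H2-Q2, 19.1% for H2-Q10, 35.0% for H2-Q6, 36.4% for H2-Q4 and 50.4% for H2-T10. B2m shared none and Tap1 3.33%. H2-T10 shared most with H2-T22, at 31.7% of its words. H2-T22 too was higher in every CKO pool, at 19.7 ± 1.80 CPM against 13.9 ± 1.46 CPM in WT pools (SD, n = 3 each). Its log2 fold change was 0.0013 in library 1 alone and 1.08 in library 2 alone. Whether reads of H2-T22 were counted for H2-T10 was not tested. H2-Q4 overlaps the antisense gene Gm11131, H2-T10 overlaps Gm7030 and BC023719, Tap1 overlaps Psmb9, and B2m overlaps Patl2, and the library kit does not mark strand.

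Relative to H2-D1, 4 of the 5 H2-Q members had fewer reads in every CKO pool than in the lowest WT pool, and H2-Q6 did not. H2-Q10 had 14.5 ± 3.10 reads per 1000 H2-D1 reads in CKO pools and 39.1 ± 0.517 in WT pools (SD, n = 3 each). H2-Q4 had 17.9 ± 0.984 per 1000 in CKO pools and 31.7 ± 2.49 in WT pools. H2-Q1 had 25.5 ± 1.61 per 1000 in CKO pools and 33.6 ± 1.01 in WT pools. H2-Q2 had 5.43 ± 2.92 per 1000 in CKO pools and 20.2 ± 3.05 in WT pools. H2-Q6 overlapped, at 24.6 ± 9.31 per 1000 in CKO pools and 31.0 ± 2.21 in WT pools, and CKO pool 2, with 221 H2-Q6 reads beside 6247 H2-D1 reads, lay above all WT pools. Of the transcript words, 1.49% of those of H2-Q10, 2.58% of those of H2-Q4 and 5.02% of those of H2-Q1 also occur in H2-D1, and 3.97%, 3.01% and 2.38% occur in H2-K1. Whether H2-Q reads came from transcripts of H2-D1 or H2-K1 was not tested. In this block of polymorphic, adjoining genes, a lower level and an H2 haplotype that differs between the mice of each genotype cannot be told apart from counts per gene. The labels give the same strain for both.

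Over the 6 WT libraries, log2 levels of H2-D1 and the 5 H2-Q genes went together, with Pearson correlations of 0.72 to 0.98 over 15 pairs (median 0.90). Over the 6 CKO libraries they ranged from -0.78 to 0.81 (median 0.21). Counts were lower there, with 6 to 28 H2-Q2 reads per CKO library and 57 to 163 per WT library. For H2-Q10 these were 24 to 60 and 104 to 282 reads. H2-D1 also spanned less, at 105 to 173 CPM in CKO and 134 to 363 CPM in WT libraries. The part of these limits in the lower CKO correlations was not tested. The points share pools, a pair of libraries being drawn from each, and the correlations are a description. By library the H2-Q10 share was 11.4 to 21.7 per 1000 H2-D1 reads in CKO and 33.4 to 51.2 in WT, without overlap. That of H2-Q6 overlapped, at 14.99 to 48.8 in CKO and 27.3 to 36.9 in WT, and that of H2-Q1 narrowly so, at 21.8 to 30.1 in CKO and 29.8 to 47.3 in WT.

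**Figure D3:**
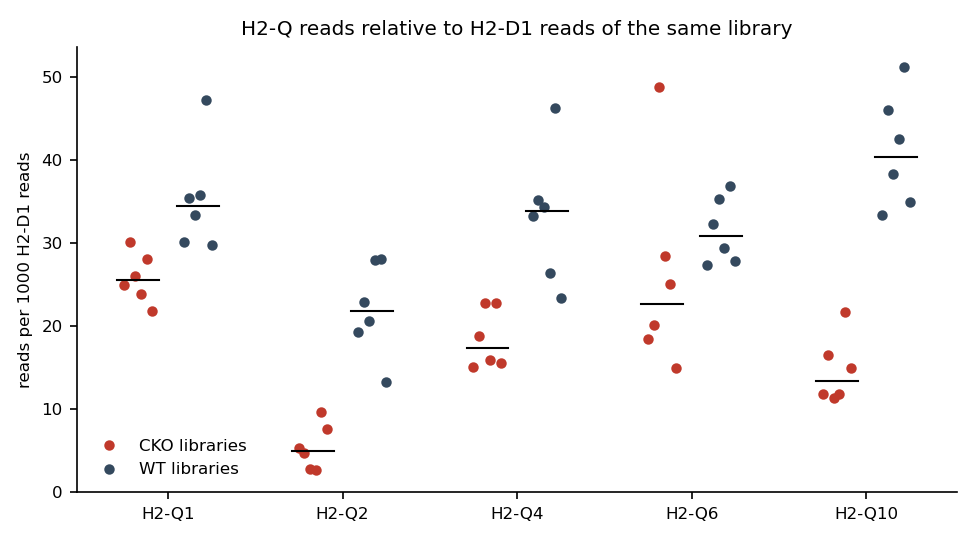
Reads of each H2-Q member per 1000 H2-D1 reads of the same library, with the 6 CKO libraries to the left of the 6 WT libraries (points, line at the median). The H2-Q10 share lies at 11.4 to 21.7 in CKO and 33.4 to 51.2 in WT libraries, while the H2-Q6 and H2-Q1 shares overlap.

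H2-D1 and the H2-Q members adjoin each other on chromosome 17. From the start of H2-D1 to the end of H2-Q10 (35262730 to 35474563) the files had 8 further tested genes. Of these, 4 were lower in every CKO pool and 1 was higher, classes that held 8.17% and 7.67% of all genes tested. Picked out after their values were seen, the lower ones included 2 more H2-Q genes. H2-Q5 stood at 1.56 ± 0.0506 CPM in CKO pools and 3.37 ± 0.143 CPM in WT pools, and H2-Q7 at 3.92 ± 0.485 CPM in CKO pools and 6.26 ± 0.762 CPM in WT pools (SD, n = 3 each). H2-Q7 is the gene that shares most transcript words with H2-Q6 and H2-Q10, at 13.9% and 14.0% of theirs. Over the whole stretch from H2-K1 to H2-T10 (33996017 to 36121465), 16 of 113 tested genes outside the set (14.2%) were lower in every CKO pool and 6 were higher. On the rest of chromosome 17 the lower class made up 9.69% of 774 genes. The 16 included H2-Q5, H2-Q7 and, likewise picked out afterwards, H2-T23 and H2-Bl, which are class I heavy chain genes or pseudogenes themselves. The 14.2% is thus no value for genes of the region unrelated to class I.

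**Figure D4:**
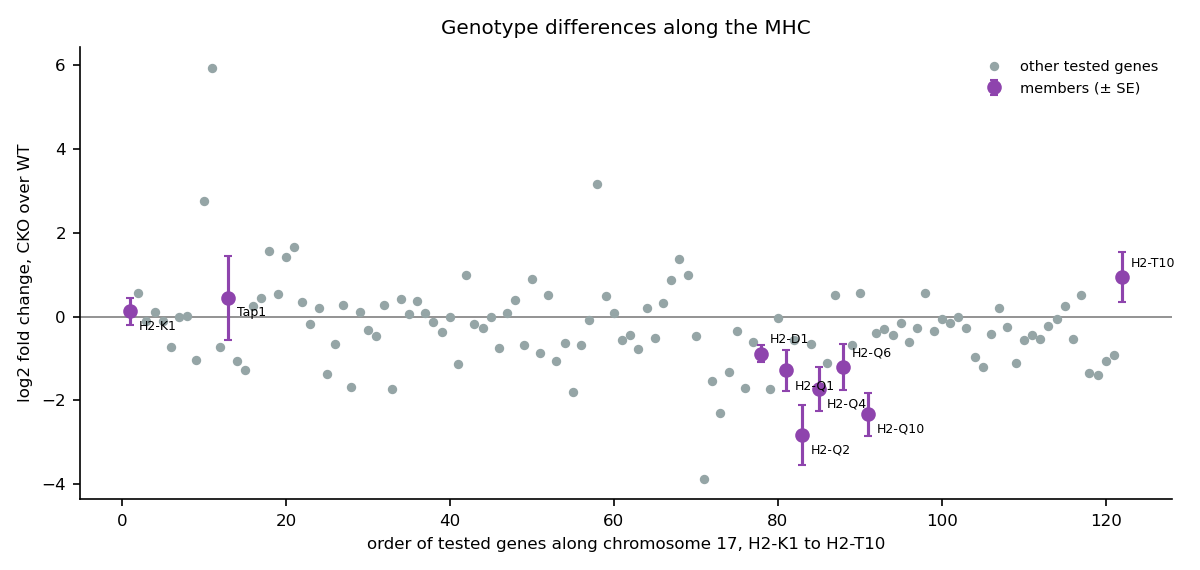
Log2 fold change of CKO over WT for the tested genes between H2-K1 and H2-T10, in their order along chromosome 17 (x axis, rank), with members in purple with SE and other genes in grey. H2-D1 and the 5 H2-Q genes sit together below 0, and H2-K1, Tap1 and H2-T10 are above 0.

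The libraries of a pool allowed a comparison that the choice of members did not use. Library numbers come from the sample titles, which do not say whether libraries of the same number were prepared together. The number may therefore have no common meaning across pools. Library 2 over library 1, with pool as a block over 6 pools, gave an adjusted p under 0.05 for 0 of 10 members (edgeR, 0% of 18267 genes, 2627 genes at an unadjusted p under 0.05). B2m was lower in library 2 of all 6 pools, with a log2 difference of -0.57 (SE 0.16, edgeR adjusted p = 0.213, unadjusted p = 0.00792), and 9.1% of the genes tested were likewise lower in all 6. DESeq2 called it (adjusted p = 0.0335) among 2093 genes. H2-D1 and H2-Q10 were nearest to 0, at -0.0029 (SE 0.32) and 0.01 (SE 0.41). H2-T10 was at -0.74 (SE 0.67). Tap1 had the widest difference, 1.72 (SE 0.89, edgeR adjusted p = 0.421), and was higher in library 2 of only 3 of 6 pools. No member passed the test for a genotype difference that depends on the library (edgeR interaction term, smallest adjusted p = 0.958, 0% of 18267 genes called).

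Other class I heavy chains and class I-like genes gave 0 called genes in the genotype comparison. Of 19 listed genes 17 were in the files and 12 were tested, with 9 lower and 3 higher in CKO on average. Among all genes tested, 52.8% had a log2 fold change below 0. H2-M2 had the smallest p of the list: it had 1, 1 and 0 reads in CKO pools, against 55, 38 and 40 reads in WT pools. In WT pools that is 1.01 ± 0.103 CPM (SD, n = 3). No CKO library had more than 1 read and no WT library fewer than 12, yet the gene did not pass adjustment (edgeR unadjusted p = 0.00106, adjusted p = 0.790). Mr1, which presents vitamin metabolites to MAIT cells, stood at 71.4 ± 29.5 CPM in CKO pools and 41.3 ± 13.3 CPM in WT pools (edgeR adjusted p = 0.790).

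The rest of the loading machinery was expressed in both genotypes. Of its 7 genes 0 were called, 2 were higher and 5 lower in CKO, with a median log2 fold change of -0.13. Canx, a chaperone that holds free heavy chains, was above every WT pool in each CKO pool at 617 ± 69.8 CPM, against 426 ± 76.4 CPM in WT (log2 fold change 0.53, SE 0.21, edgeR adjusted p = 0.790, unadjusted p = 0.0382). The same order of pools held for 7.67% of all genes tested, and Canx was named for the smallest p of its list. Erap1, the aminopeptidase that trims peptides, was at 16.7 ± 4.80 CPM in CKO pools and 27.8 ± 29.4 CPM in WT pools, where WT pool 3 had 61.0 CPM. Without WT pool 3 the log2 fold change turned to 0.58, against -0.74 over all pools (SE 0.81, edgeR adjusted p = 0.845).

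Subunits of the immunoproteasome and of its activator, which make peptides suited to class I, were lower in CKO on average in 5 of 5 genes (median log2 fold change -0.72), and 0 were called. The share of all genes tested with a log2 fold change below 0 was 52.8%. Psme1 of the activator was at 32.1 ± 4.24 CPM in CKO pools and 52.2 ± 19.96 CPM in WT pools (log2 fold change -0.70, SE 0.34, edgeR adjusted p = 0.790). Psmb10, a catalytic subunit, was at 30.2 ± 1.87 CPM in CKO pools and 55.1 ± 30.04 CPM in WT pools (-0.87, SE 0.42, edgeR adjusted p = 0.790). WT pool 1 was the highest pool for both, at 75.2 and 87.9 CPM, and without it the log2 fold changes were -0.33 and -0.35. The same pool had the highest summed levels of red blood cell markers (391.96 CPM, against 17.5 and 54.8 CPM in the other WT pools), excitatory neuron markers (885 CPM, against 314 and 374 CPM) and endothelial markers (206 CPM, against 67.2 and 63.8 CPM). Their part in the immunoproteasome values was not tested.

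Of 18 regulators of class I expression 0 were called, and 2 were higher at an unadjusted p under 0.05. Ifnar1, a chain of the type I interferon receptor, stood at 139 ± 22.6 CPM in CKO pools and 74.6 ± 17.7 CPM in WT pools (log2 fold change 0.90, SE 0.26, edgeR adjusted p = 0.790, unadjusted p = 0.0105). The Ifnar1 value was 1.74 in library 1 alone and 0.40 in library 2 alone (edgeR interaction, unadjusted p = 0.0357, adjusted p = 0.958). The kinase Jak2 stood at 20.2 ± 7.24 CPM in CKO pools and 8.89 ± 3.43 CPM in WT pools (1.18, SE 0.49, edgeR adjusted p = 0.790). Both had every CKO pool above every WT pool, as did 7.67% of all genes tested. They were named for the smallest p of the list, a choice that favours such separation.

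Of 20 interferon-stimulated genes 0 were called, with 12 higher and 8 lower in CKO and a median log2 fold change of 0.25. Irf7, a transcription factor of the interferon response, had 286, 13 and 216 reads in CKO pools, against 5, 2 and 0 reads in WT pools (edgeR unadjusted p = 0.00722, adjusted p = 0.790). Ifit3, an antiviral effector, stood at 21.6 ± 2.81 CPM in CKO pools and 9.59 ± 5.11 CPM in WT pools (1.17, SE 0.49, edgeR adjusted p = 0.790). The Ifit3 value was 2.12 in library 1 alone and 0.31 in library 2 alone.

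Class II genes, whose products present peptides on professional antigen-presenting cells, were sparse, and 0 of 6 tested were called. H2-DMb1, which encodes a peptide-loading chain of class II, had 130, 22 and 193 reads in CKO pools, against 0, 1 and 3 reads in WT pools (edgeR unadjusted p = 0.00533, adjusted p = 0.790). Libraries 1 and 2 held 50 and 80 of these reads in CKO pool 1, 1 and 21 in CKO pool 2, and 0 and 193 in CKO pool 3. Cd74, the invariant chain, had 36, 1054 and 515 reads in CKO pools, against 5, 36 and 0 reads in WT pools (edgeR adjusted p = 0.790). DESeq2 called H2-M2, Irf7 and H2-DMb1 among all these listed genes.

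**Figure D5:**
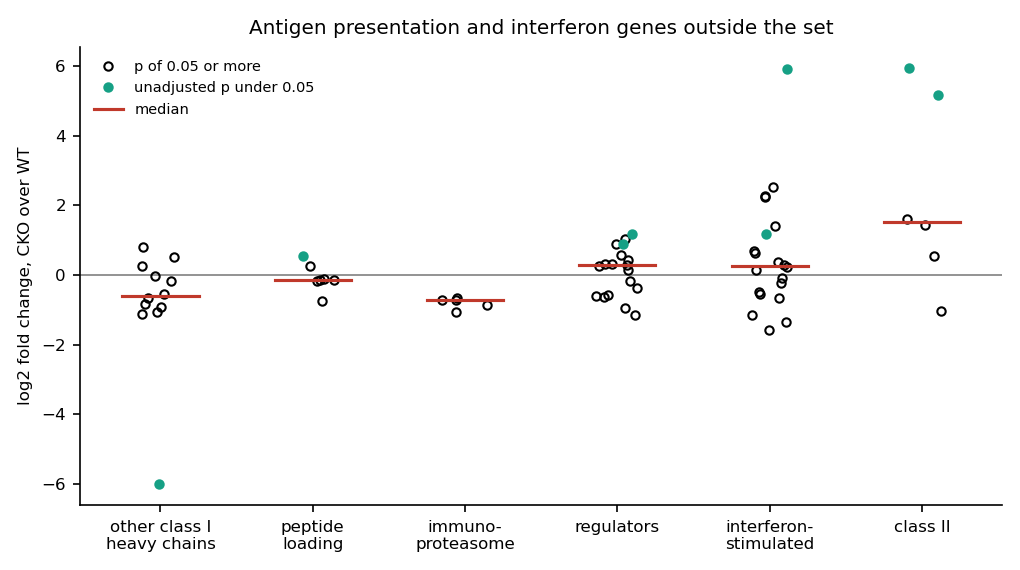
Log2 fold change of CKO over WT (y axis) for tested genes of 6 lists outside the set, with filled points for an unadjusted p under 0.05 and a line at each list's median. All 5 genes of the immunoproteasome list lie below 0, and H2-M2, Irf7, H2-DMb1 and Cd74 are far from the others of their lists, at levels of few reads in one genotype.

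Markers of other cell types, among them microglia and endothelium, varied between pools. Of 10 microglial markers 9 had a log2 fold change above 0, where 52.8% of all genes tested were below 0. Their summed level was 300, 284 and 777 CPM in CKO pools, against 376, 314 and 372 CPM in WT pools, so that CKO pool 3 was the highest of the 6 and the other two CKO pools were the lowest. Of 9 tested endothelial markers 7 were lower, at 41.1 to 77.6 CPM in CKO pools and 63.8 to 206 CPM in WT pools over all 10 listed. Markers of T and NK cells summed to 0.211 to 7.61 CPM in CKO pools and 0.158 to 13.1 CPM in WT pools, and 2 of the 9 had at most 3 reads in any pool. Pericyte markers summed to 51.2 to 86.4 CPM in CKO pools and 36.3 to 87.6 CPM in WT pools. Excitatory neuron markers (5 of 6 lower in CKO on average) summed to 279 to 377 CPM in CKO pools and 314 to 885 CPM in WT pools. Red blood cell markers (5 of 5 lower) summed to 14.3 to 118 CPM in CKO pools and 17.5 to 391.96 CPM in WT pools. No marker list was at 0 in any pool, no marker was called, and the part of these cells in the levels of the class I genes was not tested.

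By the likeness of log2 levels over the 12 libraries, the genes closest to H2-D1 outside the set were Fibp, Npdc1 and Ndufv1, with Pearson correlations of 0.94, 0.92 and 0.90. Those closest to H2-K1 were Dnmt3c-ps, 2510017J16Rik and Ang (0.94, 0.93 and 0.91), and those closest to B2m were Gm28806, Gm5251 and Gm22058 (0.97, 0.93 and 0.93). The genes named for B2m averaged 0.194 to 1.21 CPM and those for H2-K1 1.20 to 2.25 CPM. Both ranges are close to the pseudocount of 0.5 CPM. Those for H2-D1 averaged 56.3 to 182 CPM. The 12 libraries mix both genotypes, which H2-D1 separated by pool. Libraries of a pool share their cells, and these correlations are the highest of many computed.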

How the data were processed

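The authors deposited raw read counts per gene symbol, 1 table for each of 24 runs. Bowtie2, HTSeq and the build GRCm38 are named, per the submitters' processing notes. Their versions, the annotation and how HTSeq was set are not given in the sources used here. RNA went into Smart-Seq2 and Nextera XT libraries, per the labels' protocols. The 5 summary lines that name no gene stayed out of library sizes. Per pool, 16.0% to 35.3% of reads were outside genes, 2.51% to 3.43% ambiguous and 11.2% to 21.7% unaligned.

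Counts of the 2 lanes of a library agreed within sampling noise (chi-square per degree of freedom 0.981 to 1.01, 12 libraries). Both libraries of a pool differed far beyond sampling noise (75.9 to 376 over 6 pools). They come from 1 pool of cells, so the 4 runs were summed all the same and each pool entered as 1 replicate, 3 per genotype. The sources do not say whether pools shared animals. The p-values cover the spread among these pools, which may be technical.

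The genotype comparison used edgeR 4.0.16 (R 4.3.3) with filterByExpr, TMM scaling, the robust quasi-likelihood F test and Benjamini-Hochberg adjustment, with a call at an adjusted p under 0.05. Library 2 was set against library 1 over 12 libraries with pool as a block. DESeq2 1.42.0 was an alternative, and the edgeR and DESeq2 fits of both comparisons and the interaction were tested on simulated data. That check does not show which method suits these data, where edgeR called 0 genes and DESeq2 129 between genotypes. Molecular identifiers were absent, and depth therefore speaks to counting error alone. Exon lengths, positions and shared 50-base words come from GENCODE M21. Log2 levels of libraries have a pseudocount of 0.5 CPM.

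The members, lists and tests were chosen with earlier results of these data known. By rule the text names the members, Notch2, the called genes of each list that is no marker list or, with none called, the 2 with the smallest p, and the 3 genes most like each of H2-K1, H2-D1 and B2m.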

Additional observations from a re-analysis of the deposited data

Results flagged for a closer look

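The difference between library 2 and library 1 had opposite signs in the genotypes for Jak2 and Ifit3. Jak2 was higher in library 2 of all 3 CKO pools and lower in library 2 of all 3 WT pools, with a log2 difference of the differences, CKO minus WT, of 0.578 (edgeR interaction, adjusted p = 0.962). Ifit3 had the reverse signs, at -1.88 (edgeR interaction, adjusted p = 0.958). For Jak2 some differences were near 0, at 0.088 in CKO pool 1 and -0.025 in WT pool 2 (log2). Both genes were picked out for these signs, and the share of all genes with such signs is not given here. Neither interaction passed the test, and no cause was tested.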

How the results depend on the processing

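For the genotype comparison edgeR called 0 genes with all pools, with DESeq2 size factors, without a filter on low counts, with the replicate block, in each library alone and without any single pool (0 to 0), while DESeq2 called 129 genes, 3 of them in the lists outside the set. The replicate block was fitted in edgeR alone, where 0 genes were called, and DESeq2 was not run with it. Pool numbers gave no sign of pairing, with correlations of 0.06, 0.02 and -0.03 for same-numbered pools. The comparison of libraries gave 0 called genes, 2093 in DESeq2, 6 without a filter and 0 with no replicate block. Signs turned in it for H2-D1 without a filter (0.0027) and when a pool was left out (-0.24 to 0.16), for H2-Q1 when a pool was left out (-0.28 to 0.0027), and for H2-Q10 in DESeq2 (-0.042), with DESeq2 size factors (-0.029), with no replicate block (-0.14) and when a pool was left out (-0.20 to 0.11). Erap1 ranged from -1.21 to 0.58 as single pools were left out. The cause was not tested.

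Genotype log2 fold changes of H2-D1 (-1.10 to -0.69), H2-Q1 (-1.48 to -1.09), H2-Q2 (-3.18 to -2.53), H2-Q4 (-1.97 to -1.43), H2-Q6 (-1.60 to -0.98), H2-Q10 (-2.47 to -2.19) and H2-T10 (0.54 to 1.18) kept their sign in the 12 alternatives run. Those of H2-K1 (-0.21 to 0.53), B2m (-0.45 to 0.20) and Tap1 (-0.09 to 1.57) did not. The genes that kept their sign had no overlap of pools between genotypes, so leaving out a pool could hardly turn it. Several other alternatives refit the same counts. Since the members were picked with this contrast known, a kept sign carries no weight as evidence. At 17 to 54 reads per pool, H2-Q2 in CKO is limited by depth.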
